A study of Mus musculus with 9 samples.

Results

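The Hox genes encode homeodomain transcription factors and lie in 4 clusters, A to D, on separate chromosomes. Their signal was followed across 9 arrays of mouse 3T3 fibroblasts, an immortalised embryonic line. Members were all genes with a row of their own whose symbol is Hoxa, Hoxb, Hoxc or Hoxd followed by a number. This gave 37 of the 19698 genes tested, of which 10 lie in cluster A and 9 in each of clusters B, C and D. Hoxb8 only shared a row with Hoxb7 and was not analysed. Each of the 37 members had exactly 1 row, a transcript cluster on which probes spread along a transcript are summarised to 1 value.

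The arrays form 3 groups of 3. Unstimulated control cells (control_ns) received no TNF-α. TNF-α-treated control cells (control_st) were given the mouse cytokine for 1 h at 5 ng per ml, as were BAF-knockdown cells (BAFkd_st). Knockdown was by retroviral transduction with 1 short hairpin RNA against a sequence shared by Brg1 and Brm, the ATPases of the BAF nucleosome remodelling complex, followed by sorting for high GFP. The knockdown cells were therefore a sorted, stably transduced population, and unstimulated knockdown cells were not analysed here. The methods do not state whether the control cells were also transduced and sorted. If they were not, effects of these steps and of the knockdown cannot be told apart. Both comparisons use the same 3 control_st arrays: an error in those arrays moves the comparisons in opposite directions.

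Within a cluster, Hox genes share their direction of transcription and are numbered by position. Genes at the low-numbered end are classically active early and anteriorly in the embryo, and those at the high-numbered end late and posteriorly, and genes with the same number in different clusters are paralogs. Cultured fibroblasts keep a pattern of Hox expression that reflects the part of the body they came from. Polycomb complexes keep unused Hox genes silent, and trithorax-group proteins, which include the fly relative of Brg1 and Brm, oppose them. The 3 sequences printed next belong to Hoxa3, the only member called with the replicate number as a block and not called without it, and to Hoxb4 and Hoxa6, which were among the members with the stronger signal.

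Promoter windows of RefSeq on GRCm38.p6 run from 250 bases before a gene's start to 50 after it, 5′ to 3′ along the gene, and CG dinucleotides are in capitals. The Hoxa3 window is chr6:52213018-52213317 on the minus strand and holds 20 CG. It belongs to a start that lies upstream of Hoxa6, Hoxa5 and Hoxa4 and is not known to be the start used in these cells. The Hoxa6 window is chr6:52208623-52208922 on the minus strand with 26 CG, and the Hoxb4 window is chr11:96318017-96318316 on the plus strand with 14 CG.
Hoxa3: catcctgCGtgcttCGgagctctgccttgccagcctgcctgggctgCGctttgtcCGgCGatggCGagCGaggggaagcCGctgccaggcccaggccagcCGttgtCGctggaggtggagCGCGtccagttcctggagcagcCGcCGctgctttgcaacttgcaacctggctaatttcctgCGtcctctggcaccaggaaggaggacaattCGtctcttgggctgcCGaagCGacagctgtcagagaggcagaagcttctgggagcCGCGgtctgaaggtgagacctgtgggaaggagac
Hoxa6: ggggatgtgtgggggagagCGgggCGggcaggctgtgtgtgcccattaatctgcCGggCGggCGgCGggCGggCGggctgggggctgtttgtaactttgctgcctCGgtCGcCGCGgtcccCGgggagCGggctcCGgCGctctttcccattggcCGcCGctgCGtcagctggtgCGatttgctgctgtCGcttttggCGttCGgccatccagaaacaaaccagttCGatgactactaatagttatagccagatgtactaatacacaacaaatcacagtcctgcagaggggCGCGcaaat
Hoxb4: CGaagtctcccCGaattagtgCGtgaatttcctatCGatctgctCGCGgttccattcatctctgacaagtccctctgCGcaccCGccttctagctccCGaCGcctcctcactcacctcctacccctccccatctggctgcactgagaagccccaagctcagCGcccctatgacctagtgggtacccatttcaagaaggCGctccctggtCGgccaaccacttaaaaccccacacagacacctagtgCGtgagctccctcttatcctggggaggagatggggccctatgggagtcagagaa

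Windows were listed for 21 of the 37 members, 23 windows in all, and the other 16 members, Hoxa4, Hoxb2, Hoxb3 and Hoxb9 among them, had none. A window was put in the CpG-rich class when its GC content exceeded 50% and its observed-to-expected CG ratio exceeded 0.6. This held for 11 of the 23 Hox windows (47.8%) and for 33.3% of all 32841 windows in the table. Hoxa3 (64.0% GC, ratio 0.657) and Hoxa6 (62.0%, 0.923) were in this class, while Hoxb4 (58.0%, 0.593) fell just short of the ratio and Hoxb1 (59.3%, 0.380) well short of it. Hoxa13 had the highest GC content of the set at 81.0% and Hoxd4 the lowest at 39.7%. Among the 3 windows of members with a signal above the cutoff used below, 1 was in the class, against 10 of the 20 windows of members below it.

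Motif letters were sought on both strands of the same windows. The composite site TGATNNAT, which Hox proteins can bind together with Pbx, occurred in 3 Hox windows (13.04%), those of Hoxa2, Hoxb1 and 1 of the 2 Hoxd11 starts, and in 8.85% of all windows. The TATA box TATAAA occurred in 3 (Hoxa10, Hoxd4 and Hoxd13; 13.04%), against 13.6% of all windows. The NF-kB consensus, bound by the transcription factor that TNF-α activates, occurred in 1 Hox window, that of Hoxa13 (4.35%), against 8.46% of all. None of the 3 motifs occurred in the windows of Hoxa3, Hoxa6 and Hoxb4.

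Values are log2 signals after RMA (robust multi-array average), so a difference of 1 is a doubling of signal. The medians of the arrays lay between 7.77 and 7.83 and correlations between arrays between 0.992 and 0.998. Arrays give no read depth, and their number limits the precision. As a check of the knockdown, Smarca4, which encodes Brg1, read 11.66, 11.56 and 11.63 in control_ns, 11.62, 11.53 and 11.56 in control_st and 10.50, 10.64 and 10.25 in BAFkd_st. This was a difference of -1.11 ± 0.09 (SE) between TNF-treated knockdown and control cells (limma, adjusted p = 0.00362). Smarca2, which encodes Brm, read 9.18, 9.94 and 9.22, then 9.51, 9.81 and 9.39, then 9.12, 9.38 and 9.12. Its difference of -0.36 ± 0.20 was not called (limma, adjusted p = 0.734, and 0.129 with the replicate number as a block). Every knockdown array was below every TNF-treated control array. The Smarca4 signal was 2.15-fold and the Smarca2 signal 1.29-fold lower in TNF-treated knockdown than in TNF-treated control cells. The paper reports a larger reduction of both transcripts by the hairpin, measured by quantitative RT-PCR. Of 10 fibroblast markers 8 were above the median of all genes in control_ns, with Thy1 and Lum below it, while 1 of 9 leukocyte markers (Cd68), 1 of 10 epithelial markers (Krt8) and 0 of 8 endothelial markers were.

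Of the 37 Hox genes, 7 had a mean signal in unstimulated control cells above 7.99, the median of all 19698 genes, and 30 lay below it. The 7 were Hoxa4 and Hoxa6 in cluster A and Hoxb1, Hoxb2, Hoxb3, Hoxb4 and Hoxb9 in cluster B. That is 2 of 10 members in cluster A, 5 of 9 in B, 0 of 9 in C and 0 of 9 in D. By position, all 7 carry a number from 1 to 9, of 25 such members, and 0 of the 12 members numbered 10 to 13 were above the cutoff. The signal of a probe set depends on its probes as well as on the RNA, so these are classes of signal, and levels of different genes are not compared as amounts of RNA. A cutoff at the third quartile of all genes (9.91) left only Hoxb3.

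In cluster B, Hoxb3, a factor of hindbrain and neck patterning, read 10.22, 10.45 and 10.21 in control_ns. Hoxb2, its neighbour, read 9.77, 9.74 and 9.89, and Hoxb9, at the posterior side of the cluster, 9.14, 9.34 and 9.14. Hoxb4, also known for its action on blood stem cells, read 8.68, 8.50 and 8.29, and Hoxb1, a factor of the hindbrain, 8.28, 8.43 and 8.43. Between Hoxb4 and Hoxb9, the signals of Hoxb5, Hoxb6 and Hoxb7 (means 7.34, 7.22 and 7.65) were below the cutoff, and so was that of Hoxb13 (6.80). The analysed genes above the cutoff in cluster B were thus Hoxb1 to Hoxb4 and Hoxb9. Hoxb8, between Hoxb7 and Hoxb9, was not analysed, so whether Hoxb9 stands apart is not known.

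In cluster A, Hoxa4 read 8.97, 8.90 and 8.93 and Hoxa6 read 8.22, 8.27 and 8.24 in control_ns. Hoxa7 (mean 7.95) and Hoxa5 (7.87), a factor needed for lung and rib cage patterning, lay just under the cutoff, followed by Hoxb7 of cluster B, and Hoxa6 and Hoxb1 were the members just above it. Hoxa7 differed from the cutoff by -0.05 and Hoxa5 by -0.12, with SDs of 0.02 and 0.03 over the 3 arrays. The remaining means of cluster A ran from 6.05 for Hoxa11 to 7.64 for Hoxa3. Hoxa9 read 6.57 on average, Hoxa2 6.999, Hoxa13 7.14 and Hoxa10 7.38.

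All 18 members of clusters C and D lay below the cutoff, from 5.28 (Hoxc4) to 7.40 (Hoxc9) in cluster C and from 6.02 (Hoxd8) to 7.41 (Hoxd9) in cluster D. The posterior members Hoxd10, Hoxd11, Hoxd12 and Hoxd13, which pattern the limb, had means of 6.71, 7.005, 6.74 and 6.88. Hoxc10, Hoxc11, Hoxc12 and Hoxc13 had means of 6.59, 7.06, 6.73 and 6.49. In each of the other groups the same number of members, 7, was above that group's own median of all genes.

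**Figure D1:**
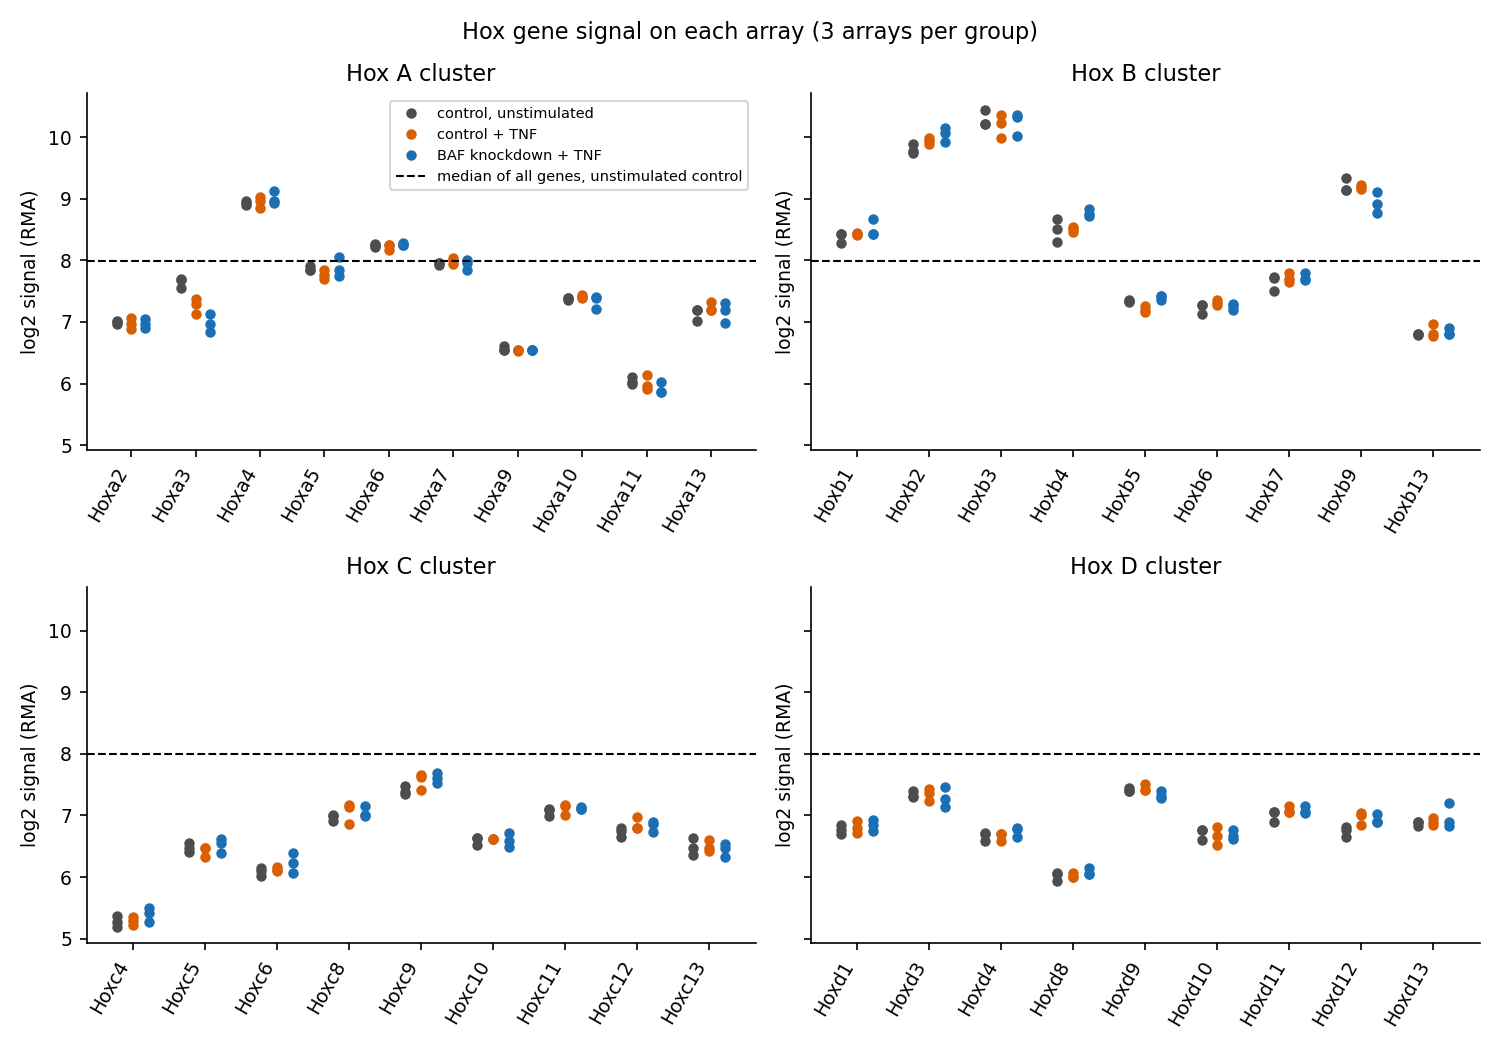
Log2 RMA signal (vertical axis) of each of the 37 Hox genes on each of the 9 arrays, by cluster and in order of gene number, with 3 points per group. The dashed line is the median of all genes in unstimulated control cells, 7.99, and 2 genes of cluster A, 5 of cluster B and 0 of clusters C and D have a control_ns mean above it.

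TNF-α for 1 h left the Hox genes close to their unstimulated signal. By limma over all 19698 genes, 0 of the 37 members were called higher and 0 lower, where 0.137% of all genes were called higher and 0% lower. With the replicate number as a block, Hoxa3 was called lower, 1 of 37 members where 0.0305% of all genes were called lower and 0.366% higher. The median difference over the members was 0.02, with 25 of 37 above 0, beside -0.002 over all genes, with 9576 of 19698 above 0. The median size of the difference, without its sign, was 0.041 over the members and 0.044 over all genes, and a size over 0.1 was seen in 7 members (18.9%) and in 17.3% of all genes. Below the cutoff such a size was seen in 6 of 30 members (20%) and in 13.1% of genes. Above the cutoff it was seen in 1 of 7 members (14.3%) and in 21.4% of genes.

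Hoxa3 encodes a factor needed for the pharyngeal organs and neck. It read 7.56, 7.70 and 7.68 in control_ns and 7.13, 7.29 and 7.37 in control_st. The 3 treated arrays were all below the 3 untreated ones, and both groups were below the cutoff. The difference of -0.38 ± 0.09 (SE, n = 3 arrays a group), a 1.30-fold lower signal, had a limma adjusted p of 0.514, and of 0.0495 with the block. It was also the only member past the difference of 0.35 that the methods use for induced genes, in either direction, which 1.15% of all genes passed. With the block, the call was lost when any single control array was left out (limma adjusted p from 0.107 to 0.394), and also without knockdown array 1 (0.151), while the difference ranged from -0.43 to -0.34 in these and the other blocked fits. In the RefSeq table Hoxa3 overlaps Hoxa4, Hoxa5, Hoxa6 and antisense transcripts, and whether the probes of this row are shared with them was not tested. The difference of Hoxa4 was 0.02, that of Hoxa5 -0.10 and that of Hoxa6 -0.02.

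Arrays of the 2 groups did not overlap for 3 members, Hoxa3, Hoxb5 and Hoxd12, which is 8.11% of the members beside 5.97% of all genes. The same 3 had an unadjusted limma p under 0.05, beside 3.07% of all genes. Hoxd12, a limb patterning gene, read 6.65, 6.81 and 6.77 before TNF-α and 6.84, 7.01 and 7.04 after it, a difference of 0.22 ± 0.07 (limma, adjusted p = 1). Its signal stayed below the cutoff on every array. Hoxb5, also below it, read 7.33, 7.34 and 7.35 and then 7.16, 7.20 and 7.25, a difference of -0.13 ± 0.04 (limma, adjusted p = 1).

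The other members among the 8 largest differences overlapped between groups. Hoxc9 read 7.38, 7.48 and 7.34 without and 7.41, 7.65 and 7.62 with TNF-α, a difference of 0.16 ± 0.08. Hoxb2 read 9.93, 9.88 and 9.98 with TNF-α, 0.13 ± 0.07 above its unstimulated mean, with 1 treated array inside the untreated range. Hoxc12 read 6.80, 6.74 and 6.65 and then 6.97, 6.80 and 6.80, a difference of 0.13 ± 0.07. Hoxc9 and Hoxc12 lie in cluster C, which had no gene above the cutoff. Hoxa13, which acts in the hand plate and genital tract, read 7.19, 7.02 and 7.19 and then 7.33, 7.20 and 7.19, a difference of 0.10 ± 0.09. Hoxb3 read 9.99, 10.37 and 10.22 with TNF-α, a difference of -0.10 ± 0.12 that became 0.002 when control_st array 1 was left out. The remaining 29 members differed by less than these 8, from -0.10 for Hoxa5 to 0.09 for Hoxb6.

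**Figure D2:**
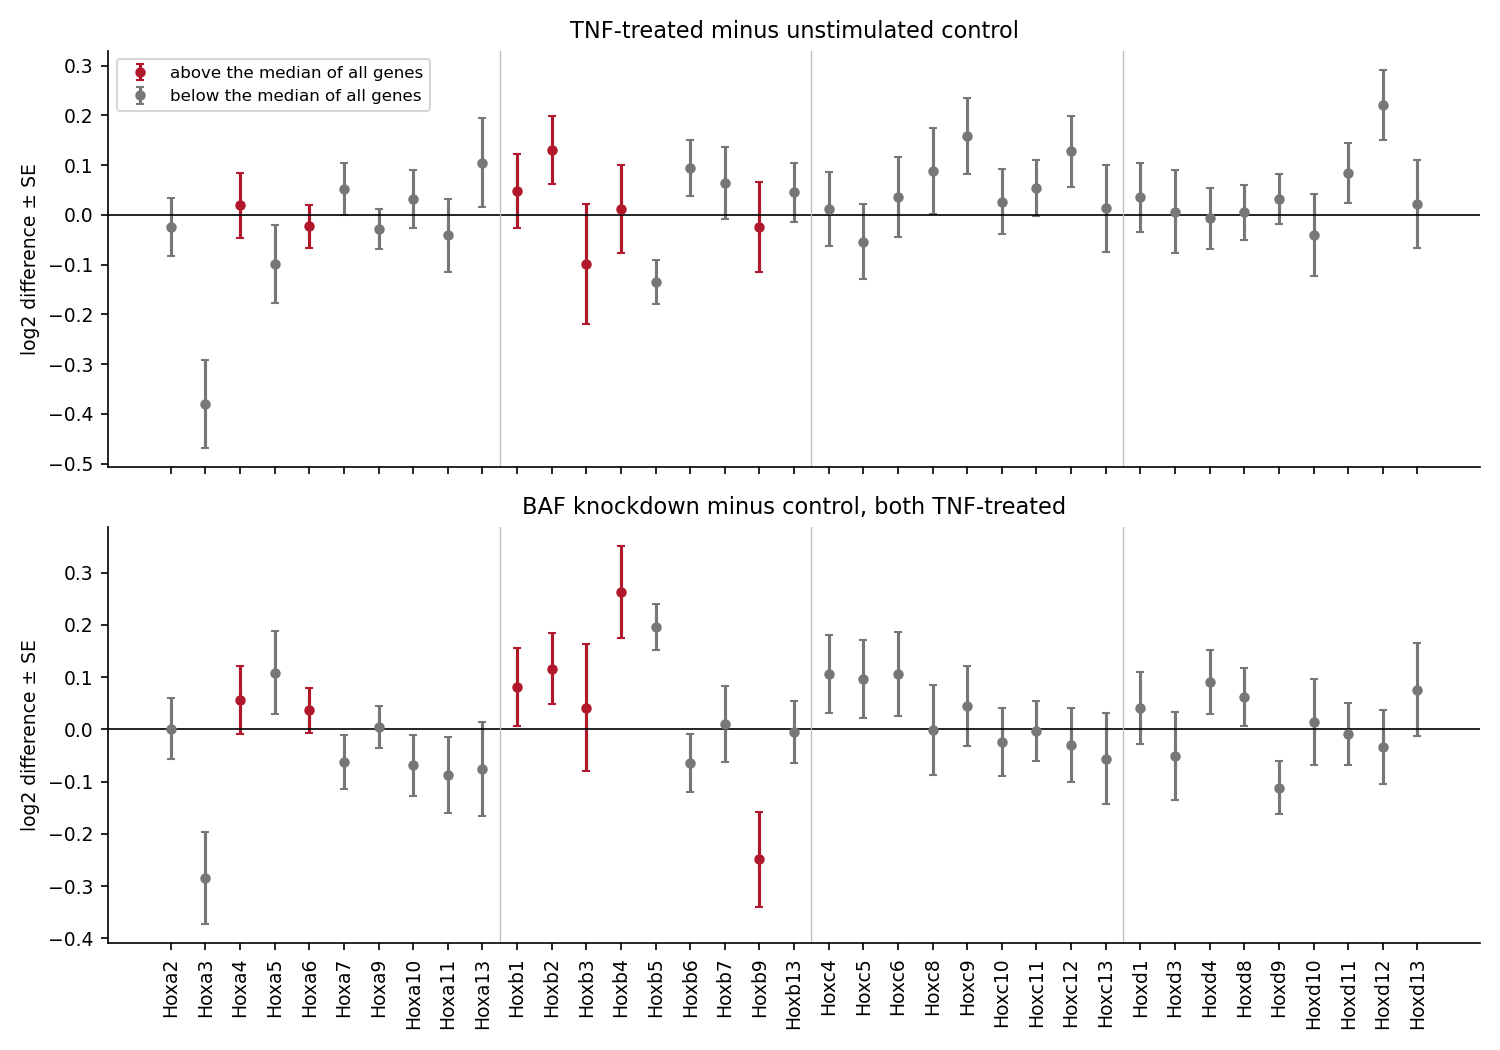
Log2 difference with its limma SE (vertical axes, 3 arrays a group) of the 37 Hox genes, ordered by cluster and number, for the TNF-α comparison, control_st minus control_ns (top), and the knockdown comparison, BAFkd_st minus control_st (bottom). Red marks the 7 genes with a control_ns signal above the median of all genes. The differences run from -0.38 to 0.22 at the top and from -0.28 to 0.26 at the bottom, with Hoxa3 the lowest in both.

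Knockdown of Brg1 and Brm, which asks whether Hox signal in TNF-treated fibroblasts depends on normal levels of the BAF ATPases, also gave 0 of 37 members called higher and 0 called lower by limma. Of all genes 0.0355% were called higher and 0.102% lower. With the block the calls over all genes rose to 0.98% higher and 2.33% lower, and Hoxa3 was again the only member called, lower in knockdown cells. The median difference of the members was 0.005, with 20 of 37 above 0, beside 0.009 over all genes, with 10731 of 19698 above 0. Its median size was 0.062 over the members and 0.057 over all genes. A size over 0.1 was seen in 9 members (24.3%) and in 28.1% of all genes. Below the cutoff it was seen in 6 of 30 members (20%) and in 17.5% of genes. Above the cutoff it was seen in 3 of 7 members (42.9%) and in 38.8% of genes. The methods' difference of 0.3 was passed by 0 members and by 5.14% of all genes.

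Hoxa3 read 6.84, 7.13 and 6.97 in knockdown cells, against 7.13, 7.29 and 7.37 in TNF-treated control cells. The difference of -0.28 ± 0.09, a 1.22-fold lower signal, had a limma adjusted p of 0.3498, and of 0.0425 with the block. The highest knockdown array, 7.131, was just under the lowest control array, 7.133. The call with the block was lost when any array other than knockdown array 2 was left out (limma adjusted p from 0.0774 to 0.219), and the difference ran from -0.35 to -0.23 over all blocked fits. The comparisons share the control_st arrays and are not independent. What lies behind the lower signals in both was not tested.

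Arrays did not overlap for 5 members, Hoxa3, Hoxb4, Hoxb5, Hoxb9 and Hoxd9, which is 13.5% of the members beside 10.1% of all genes. An unadjusted limma p under 0.05 was found for 4 of these, all but Hoxd9, which is 10.8% beside 8.43% of all genes. Shares of members this near to those of all genes are no result about the Hox genes.

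Hoxb4 read 8.50, 8.55 and 8.46 in TNF-treated control cells and 8.75, 8.72 and 8.83 in knockdown cells, a difference of 0.26 ± 0.09 (limma, adjusted p = 0.408, and 0.204 with the block). All 3 knockdown arrays were above all 3 TNF-treated control arrays, but control_ns array 1, at 8.68, was nearly as high. Hoxb9 went the other way, from 9.18, 9.15 and 9.22 to 8.77, 9.11 and 8.92, a difference of -0.25 ± 0.09 (limma, adjusted p = 0.463, and 0.160 with the block). Knockdown arrays 1 and 3 were clearly lower, and array 2 was 0.04 below its same-numbered control.

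Hoxb5 read 7.43, 7.36 and 7.41 in knockdown cells against 7.16, 7.20 and 7.25, a difference of 0.20 ± 0.04 (limma, adjusted p = 0.153, and 0.0791 with the block). The knockdown arrays lay just above the unstimulated ones, which read 7.33 to 7.35, and 0.06 above their mean. Hoxd9 read 7.41, 7.41 and 7.50 in control and 7.39, 7.31 and 7.28 in knockdown cells, a difference of -0.11 ± 0.05. Neither gene was above the cutoff in any group.

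Of the other members among the 8 largest, Hoxb2 read 9.93, 10.15 and 10.07 in knockdown cells, 0.12 ± 0.07 above TNF-treated control cells. Its means were 9.80, 9.93 and 10.05 in control_ns, control_st and BAFkd_st, with neighbouring groups overlapping. Hoxa5 read 7.85, 7.76 and 7.70 in control_st and 7.85, 7.74 and 8.05 in knockdown cells, so that its difference of 0.11 ± 0.08 came from array 3 alone and was -0.01 without the arrays of that number. Hoxc4 read 5.22, 5.35 and 5.29 and then 5.50, 5.41 and 5.26, a difference of 0.11 ± 0.07 with overlapping groups. The remaining 29 members differed by at most 0.11 in size. Among them were the other genes above the cutoff, Hoxb1 (0.08), Hoxa4 (0.06), Hoxb3 (0.04) and Hoxa6 (0.04).

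**Figure D3:**
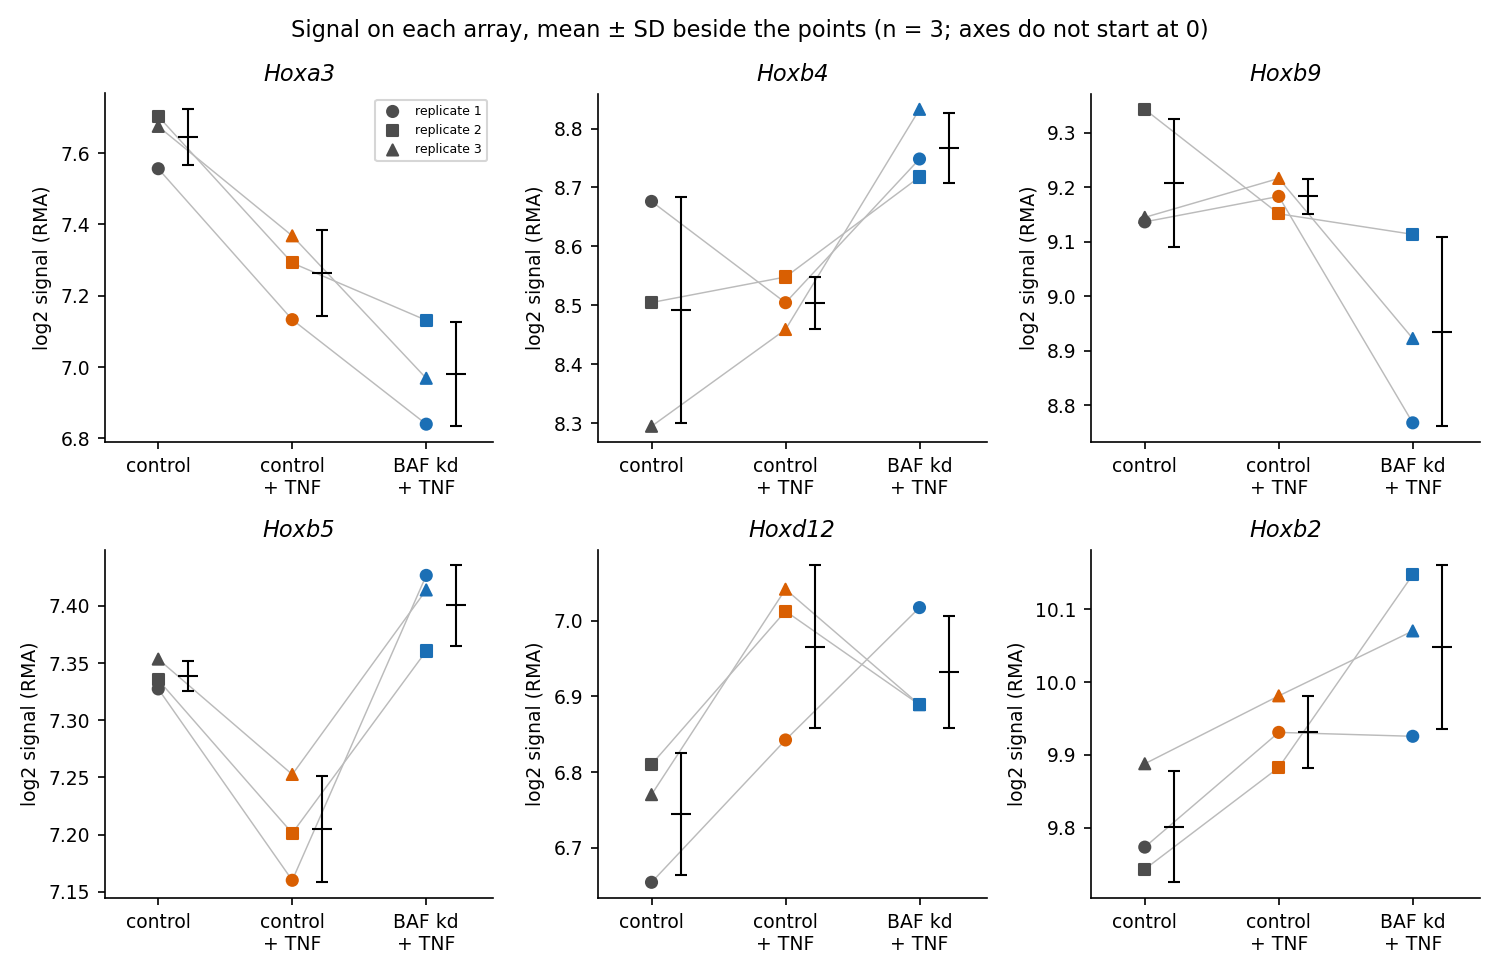
Log2 RMA signal (vertical axis) of 6 Hox genes on every array, with grey lines joining arrays of the same replicate number and a bar for mean ± SD (n = 3) beside each group. Hoxa3 is lower in each group than in the one to its left, while Hoxb4 and Hoxb9 move in opposite directions in knockdown cells and were not called.

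Within a group the 7 genes above the cutoff had a median SD of 0.087 in control_ns, 0.045 in control_st and 0.113 in BAFkd_st. For all genes above the cutoff these medians were 0.104, 0.105 and 0.0959. The median knockdown difference of the 7 was 0.06, with 6 of 7 above 0 and Hoxb9 the exception. Over all genes above the cutoff it was -0.003, with 4792 of 9849 above 0. In 33 limma settings the median of the 7 ran from 0.025 to 0.102. It moved by more than its SD between replicates (0.023) in 7 of them. The median TNF-α difference of the 7 Hox genes was 0.01, with 4 of 7 above 0, beside 3914 of 9849 genes. Exactly tied values on 2 or more arrays occurred for 20 of the 37 members (54.1%) and for 49.8% of all genes. Above the cutoff they occurred for 3 of 7 members (42.9%) and for 27.5% of all genes. Below it they occurred for 17 of 30 members (56.7%) and for 72.1% of all genes. Of the members above the cutoff, Hoxb1 held 5 and Hoxa6 held 6 distinct values over 9 arrays.

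Hox proteins bind DNA with TALE homeodomain partners of the Pbx, Meis and Pknox families, and 8 of 9 such genes were measured, 6 of them above the cutoff. By limma 0 were called in either comparison, with 1 lower at an unadjusted p under 0.05 after TNF-α and 2 lower in knockdown cells. With the block, Meis1 and Meis2 were called lower in knockdown cells and 0 were called after TNF-α. In knockdown cells 2.33% of all genes were called lower and 0.98% higher with the block. An unadjusted limma p under 0.05, in either direction, was found for 3.07% of all genes after TNF-α and 8.43% in knockdown cells. These shares also apply to the lists below, whose counts were not tested against them. Meis1 read 9.97, 9.95 and 9.68 in TNF-treated control cells and 9.49, 9.71 and 9.31 in knockdown cells, a difference of -0.37 ± 0.12 (limma, adjusted p = 0.376, and 0.0179 with the block). Each knockdown array was below its same-numbered control, with overlap between the groups through knockdown array 2. Meis2 went from 10.70, 10.59 and 10.52 to 10.33, 10.23 and 10.25, a difference of -0.33 ± 0.07 without overlap (limma, adjusted p = 0.116, and 0.0337 with the block). Of 17 settings with the block, Meis1 was called in 10, with the call lost without control_st array 1 or 3 or knockdown array 1 or 3, and Meis2 in 5, with the call lost without any array but control_ns array 2. The largest TNF-α differences of the list were those of Pbx2 (-0.20) and Pknox2 (0.20).

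The Polycomb and trithorax genes that act on Hox chromatin were all above the cutoff where measured, and 0 were called by limma. All 11 measured subunits of the repressive complex PRC2, which methylates histone H3 at lysine 27, were uncalled with the block as well, and 0 had an unadjusted limma p under 0.05. Their largest TNF-α differences were those of Mtf2 (0.17) and Phf19 (0.12), and their largest knockdown differences those of Phf19 (-0.07) and Ezh2 (-0.07), the catalytic subunit. At an unadjusted limma p under 0.05, 2 of 17 measured PRC1 genes were lower after TNF-α, beside 3.07% of all genes in either direction. In knockdown cells 1 was lower and 1 higher, beside 8.43% of all genes in either direction. The last of these, Pcgf5, a subunit of a variant PRC1, was the 1 gene of the list called with the block. Pcgf5 read 8.32, 7.77 and 8.42 in TNF-treated control cells and 9.28, 8.79 and 9.60 in knockdown cells. Every knockdown array was above every control array, by 1.05 ± 0.24 on average or 2.08-fold (limma, adjusted p = 0.153, and 0.000473 with the block). The call with the block was lost only when all arrays numbered 1 were left out (limma, adjusted p = 0.0916).

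After TNF-α the largest PRC1 differences were those of Cbx2 (-0.33) and Cbx8 (-0.23), both chromodomain subunits and neither called. Of the 11 trithorax and H3K27 demethylase genes measured, Kdm6b, which removes methyl groups from H3 lysine 27, had the largest TNF-α difference (0.38, limma adjusted p = 0.921) and Kmt2d the next (-0.16). Kmt2a (0.25) and Kmt2c (0.23), both H3K4 methyltransferases, had the largest knockdown differences. None was called with the block, and at an unadjusted limma p under 0.05 there was 1 gene, higher, in each comparison.

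Genes beside the clusters and the ParaHox Cdx genes, 20 measured of 21, gave 0 limma calls with or without the block, with 1 gene higher after TNF-α and 1 lower in knockdown cells at an unadjusted p under 0.05. Ttll6 (0.17) and Calcoco1 (0.10) differed most after TNF-α, and Cdx4 (-0.16) and Cbx5 (0.15) in knockdown cells. Among the noncoding transcripts of the clusters, 9 of 19 were measured, 1 of them (Mir615) above the cutoff, and 0 were called by limma, with 1 higher in knockdown cells at an unadjusted p under 0.05. Mir196a-1 had the largest TNF-α difference (-0.10), followed by Hottip (-0.10), and Mir196a-2 (0.19; limma, adjusted p = 0.318, and 0.169 with the block) and Haglr (0.06) the largest in knockdown cells. The Mir196a-1 and Mir196a-2 loci, in clusters B and C, encode the same mature miRNA, a known repressor of Hox mRNAs, printed here with its seed (bases 2 to 8) in capitals because the 2 rows are named for its loci. The arrays do not resolve the mature form.
miR-196a-5p: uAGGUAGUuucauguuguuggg

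Of the other limb and mesenchymal patterning factors, 34 of 38 were measured, with 0 called by limma. At an unadjusted p under 0.05, 1 was higher and 1 lower after TNF-α, and 1 higher and 3 lower in knockdown cells. Of all genes, 3.07% reached this p after TNF-α and 8.43% in knockdown cells, in either direction. With the block, En1 was called higher and Dlx1 and Dlx2 lower in knockdown cells, and 0 after TNF-α, where Dlx2 (-0.24) and Tbx3 (0.23) differed most. Dlx1 read 9.68, 9.74 and 9.69 in TNF-treated control cells and 9.21, 9.39 and 9.37 in knockdown cells, a difference of -0.38 ± 0.06 (limma, adjusted p = 0.0653, and 0.0190 with the block). Dlx2, its neighbour and also a homeodomain gene, went from 9.97, 10.001 and 10.16 to 9.63, 9.71 and 9.63, a difference of -0.39 ± 0.08 (limma, adjusted p = 0.105, and 0.0202 with the block). En1, which patterns the ventral limb, went from 8.996, 8.948 and 8.951 to 9.32, 9.43 and 9.41, a difference of 0.42 ± 0.08 (limma, adjusted p = 0.0956, and 0.0309 with the block). The groups did not overlap for any of the 3, and blocked calls were made in 9 of 17 settings for Dlx1, 9 for Dlx2 and 6 for En1. All 3 calls were lost without any single control_st array or knockdown array 1, those of Dlx2 and En1 also without control_ns array 1, and that of En1 without control_ns array 2 or knockdown array 3.

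All 17 genes of a list of retinoid and growth factor signals were measured, and 0 were called by limma. At an unadjusted limma p under 0.05, 1 was higher and 2 were lower in knockdown cells and 0 differed after TNF-α. Of all genes, 8.43% reached this p in knockdown cells, in either direction. With the block, Crabp2 was called lower and Wnt5a higher in knockdown cells. Crabp2, which carries retinoic acid to its nuclear receptors, read 10.35, 10.71 and 9.99 in TNF-treated control cells and 9.47, 10.03 and 9.12 in knockdown cells, a difference of -0.81 ± 0.34 or 1.75-fold (limma, adjusted p = 0.549, and 0.0112 with the block). The groups overlapped, although each knockdown array was below its same-numbered control. Wnt5a, a secreted signal of limb and axis outgrowth, went from 9.80, 9.60 and 9.43 to 10.47, 10.22 and 10.41 without overlap, a difference of 0.75 ± 0.16 or 1.69-fold (limma, adjusted p = 0.127, and 0.0162 with the block). Each was called in 12 of 17 blocked settings, and both calls were lost without control_st array 1 or 3 or knockdown array 1, that of Wnt5a also without control_st array 2. The largest TNF-α differences were those of the retinoid receptors Rara (-0.20) and Rxra (-0.14).

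**Figure D4:**
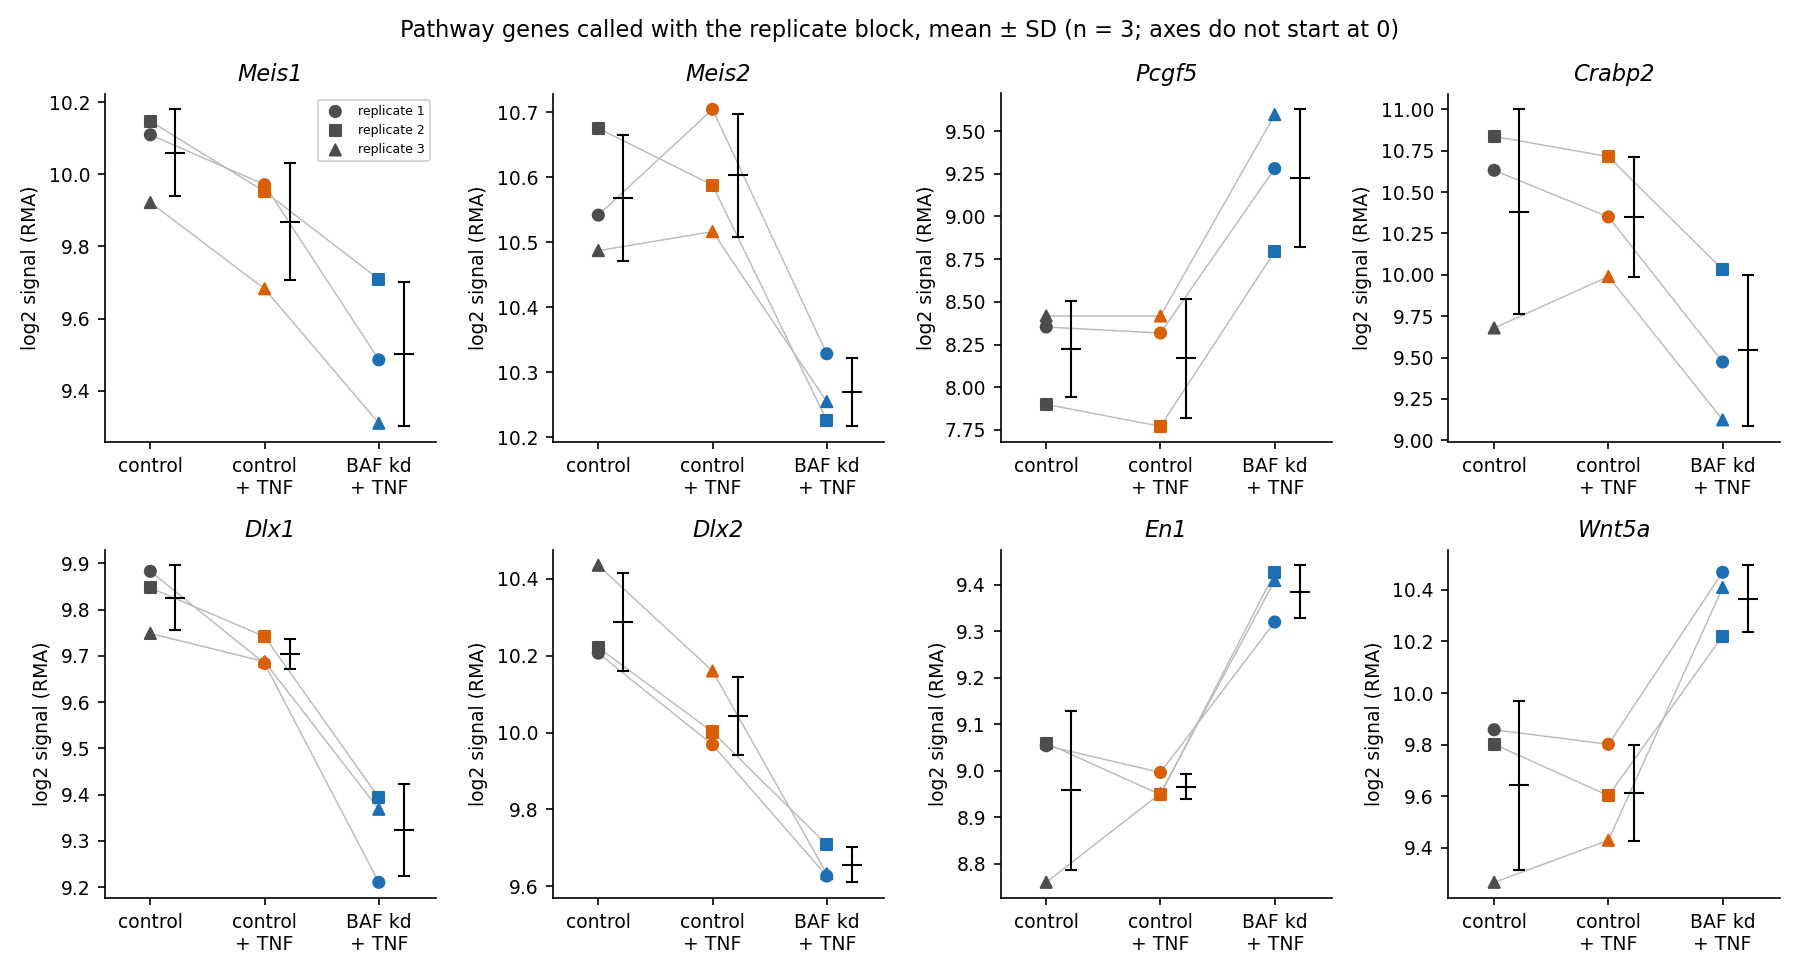
Log2 RMA signal (vertical axis) on every array of the 8 pathway genes called with the replicate block in knockdown cells, with grey lines joining arrays of the same replicate number and a bar for mean ± SD (n = 3). Meis1, Meis2, Crabp2, Dlx1 and Dlx2 are lower and Pcgf5, En1 and Wnt5a higher in knockdown than in control cells of the same number, and with all 9 arrays 0 of the 8 were called without the block.

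The summed signal of the fibroblast markers was lower in knockdown cells. None of the 10 was called by limma in either comparison. At an unadjusted p under 0.05, 3 were lower in knockdown cells, beside 8.43% of all genes in either direction. After TNF-α 0 were lower or higher at this p. With the block 3 were called lower in knockdown cells, beside 2.33% of all genes: S100a4 (-1.18), Col3a1 (-0.93) and Pdgfra (-0.57). The S100a4 call was lost without control_ns array 1, control_st array 1 or 3 or knockdown array 1 or 3, and the Pdgfra call without control_st array 3. The summed signal of the 10, as log2, lay between 15.83 and 15.94 in control_ns, 15.73 and 15.91 in control_st and 15.57 and 15.62 in BAFkd_st. Leukocyte (9.96 to 10.06 in control_ns and in control_st, 9.98 to 10.003 in BAFkd_st), epithelial (10.70 to 10.77, 10.72 to 10.77 and 10.72 to 10.89) and endothelial markers (9.92 to 9.98, 9.94 to 9.997 and 9.95 to 10.05) had 0 calls with or without the block. The part of the fibroblast markers' shift in the results above was not tested. In bulk RNA of this cell line, a lower signal in every cell or in only some cells cannot be told apart.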

How the data were processed

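Total RNA of 9 cultures was hybridised to Affymetrix Mouse Gene 1.0 ST arrays, and the authors deposited log2 signals obtained by RMA, which corrects background, quantile normalises and summarises probes. No software version for this step was given. Of 27024 transcript clusters, 21319 had 1 symbol in the platform annotation, 1430 several and 4275 none. For 930 genes with more than 1 row, the row with the highest mean was used. All columns were mapped to labelled samples. Tests used lmFit and eBayes of limma 3.58.1 (R 4.3.3; 3 group means over 9 arrays, 6 residual degrees of freedom, two-sided), with Benjamini-Hochberg adjustment over 19698 genes and calls at an adjusted p under 0.05. The fit was tested on simulated data.

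The methods state that replicates come from different days, and groups share replicate numbers. Deviations from group means correlated at 0.210 to 0.724 over all genes between arrays of the same number (9 pairs) and at -0.566 to 0.0111 otherwise (18 pairs), so all same-number values exceeded 0.1 and a second fit took the number as a block (4 residual degrees of freedom). Over the Hox genes alone the same-number values ran from -0.19 to 0.349 and the others from -0.400 to 0.311, so these ranges largely overlapped.

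The members, lists and tests were chosen with earlier results of these data known. Each Hox gene was to be given a level or range, with every array for members called with or without the block and for the 8 largest differences per comparison; of other lists, up to 4 called genes or else the 2 largest differences. Genes named outside this rule were chosen after their values were seen. Promoter windows and miRNA sequences came from RefSeq tables (GRCm38.p6), read with Python 3.11.15. The array annotation's build is not stated, so no array positions are given.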

Additional observations from a re-analysis of the deposited data

How the results depend on the processing

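The count of Hox genes called higher was 0 in both comparisons under every alternative tried, and the count called lower was 0 in all fits by limma without the block. With the replicate block, 1 Hox gene, Hoxa3, was called lower after TNF-α and 1 in knockdown cells. The count was also 1 in both comparisons when the block was combined with an intensity trend, with genes below the first quartile left out, or with BAFkd_st array 2 left out, and 1 after TNF-α with BAFkd_st array 3 left out; these combinations were chosen after seeing the data. It returned to 0 with the block when each array was centred on its median (Hoxa3 adjusted p = 0.0880 after TNF-α and 0.0676 in knockdown cells), when only the groups compared were fitted, or when all arrays of 1 number were left out. The methods' t-test with their difference gave 1 Hox gene lower after TNF-α, and 0 after Benjamini-Hochberg adjustment. Hoxa3 was below 0 in all 33 limma settings of each comparison and was called in 5 of 17 blocked settings after TNF-α, 4 of 17 in knockdown cells and 0 of 16 without the block. The block changed the call of no other Hox gene. Without the block, leaving out each array in turn gave Hoxb3 differences after TNF-α from -0.185 to 0.001685, and that of Hoxa5 in knockdown cells was -0.010 with the block when all arrays numbered 3 were left out. The count of Hox genes above the cutoff was 7 and became 1 with the cutoff at the third quartile. Over all genes, calls in knockdown cells ranged from 0 to 51 higher and 6 to 103 lower without the block and from 0 to 466 and 0 to 718 with it; after TNF-α they ranged from 9 to 41 and 0 to 1 without it and from 0 to 109 and 0 to 14 with it. The cause of these changes was not tested.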
